A study of Arabidopsis thaliana with 4 samples.

Results

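Strongly low tiles are the array features with the lowest score in a chromatin immunoprecipitation (ChIP) against histone H3. They were chosen by the score itself. The column median was subtracted from each replicate, the 2 replicates were averaged, and a tile was kept where that mean was at or below -0.5 and both replicates lay below 0. The rule kept 702 of 21732 measured tiles (3.23%), and 0 tiles reached -0.5 in the mean without lying below 0 in both replicates. Because the score chose the tiles, their levels and the levels around them are given as a description, with no test.

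The study compared H3 precipitates with their own input DNA in untreated Arabidopsis thaliana seedlings of the wild-type ecotype col-0, aged 10 days and grown at 22 °C in liquid 0.5X MS medium under a 16 hour photoperiod. All 4 arrays belonged to the 1 group, H3, with 2 replicates that were each hybridised on 2 arrays with exchanged dyes. The arrays of a dye swap held the same value at every measured tile, so each replicate gave 1 score per tile and n = 2. Whole seedlings were used, so a score averages over all cell types of the plant.

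DNA in the nucleus is wrapped around nucleosomes, and H3 is part of the protein core of each of them. An antibody against H3 that is not limited to a modified form pulls down nucleosomal DNA in general, so the ratio of precipitate to input follows how densely a region is packed with nucleosomes. In plants, as in other eukaryotes, the region just before the start of active genes is commonly depleted of nucleosomes, whereas silent, repeat-rich chromatin is densely packed. Which channel was the numerator of the deposited score, and whether and to which base it is a logarithm, were not settled by the labels. "Low" and "below" are therefore used of the score alone, measured from the median of the array, and say nothing of whether H3 was rare or abundant there. The tiles are named by a plate (the first 4 characters), a row letter and a column number. None of the codes matched the gene table used here (0 of 21732), so no gene, position or sequence can be given for them. Whether successive codes are neighbours on a chromosome is not known, so neighbouring wells are neighbours in code order only.

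Most strongly low tiles lay shortly inside the threshold. The mean of the replicates ranged from -2.17 to -0.50 over the 702 tiles, with a median of -0.57 and an interquartile range of -0.63 to -0.53. In replicate 1 the scores of these tiles ran from -2.43 to -0.07 with a median of -0.44, and in replicate 2 from -2.01 to -0.29 with a median of -0.73. Just inside the threshold were TC04G04 (-0.29 in replicate 1 and -0.71 in replicate 2), TB82H06 (-0.41 and -0.59) and TB05H10 (-0.42 and -0.58). Just outside it were TC13B02 (-0.29 and -0.71), TB62B03 (-0.45 and -0.55) and TA55D07 (-0.39 and -0.61). The tiles on either side of the threshold thus had much the same scores, and the threshold marks no gap in the distribution.

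The replicates did not contribute equally to the choice. The spread of the score over all tiles was wider in replicate 2 (SD 0.39) than in replicate 1 (SD 0.25). Of the 702 tiles, 660 were lower in replicate 2 and 42 were lower in replicate 1. At or below -0.5 in replicate 2 were 694 of them, at or below -0.5 in replicate 1 were 207, and 199 reached -0.5 in both. The median distance between the replicates was 0.29 score units in strongly low tiles, against 0.15 over all 21732 tiles. With replicate 1 alone, 239 tiles (1.10% of the array) were at or below -0.5, and with replicate 2 alone 2191 (10.1%).

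A choice made in either replicate can be read in the other, which it did not use. All 239 tiles at or below -0.5 in replicate 1 were below 0 in replicate 2, where their median was -0.73 and 199 of them (83.3%) were at or below -0.5. Of the 2191 tiles at or below -0.5 in replicate 2, 2132 (97.3%) were below 0 in replicate 1, where their median was -0.28 and 199 (9.08%) reached -0.5. By construction 50% of all tiles lie below 0 in each replicate. A tile that was low in one replicate was therefore nearly always on the low side of the other, while how far below it lay differed between them.

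**Figure D1:**
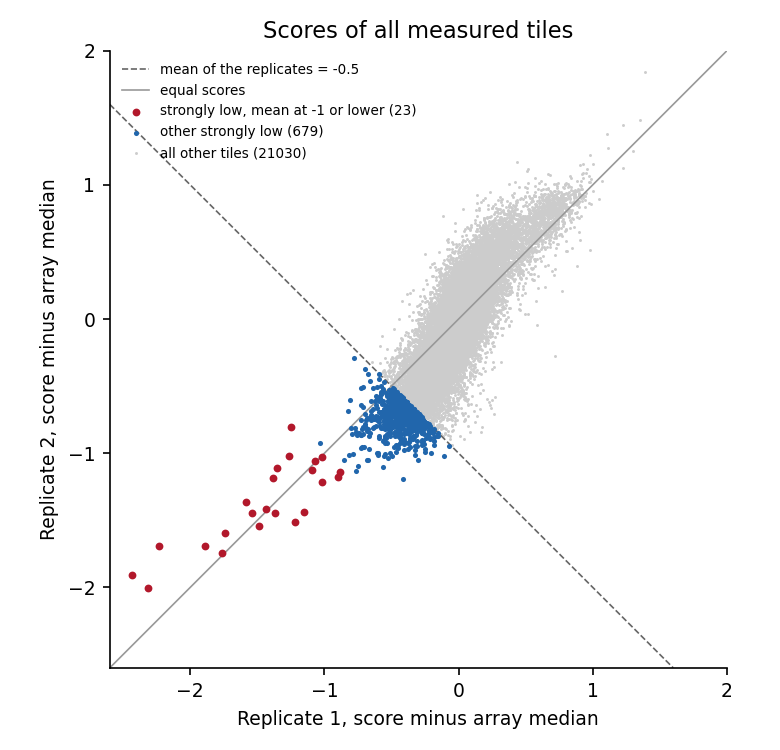
Score minus the array median in replicate 1 (horizontal) and replicate 2 (vertical), 1 point per tile, for the 702 strongly low tiles, split at a mean of -1, and all other tiles. Most strongly low tiles lie below the line of equal scores, as they were lower in replicate 2, whereas the 23 tiles with a mean of -1 or lower lie on both sides of it.

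The lowest tiles differed from the rest of the strongly low tiles in how the replicates related. Tiles with a mean of -1 or lower numbered 23, or 0.106% of the array, and lay in 18 plates; this limit was set with the values known. Their median was -1.37 in replicate 1 and -1.42 in replicate 2, and 9 of the 23 were lower in replicate 2, against 14 lower in replicate 1. In the 444 tiles with a mean between -0.5 and -0.6 the medians were -0.39 and -0.70, and 426 of the 444 were lower in replicate 2. The median ratio of replicate 2 to replicate 1 was 0.98 in the 23 lowest tiles (interquartile range 0.86 to 1.05), 1.29 in the 38 tiles between -0.75 and -1, 1.61 in the 197 tiles between -0.6 and -0.75, and 1.75 between -0.5 and -0.6. Replicate 2 was thus the lower one in most strongly low tiles, but not in most of the 23 lowest. Since the mean of both replicates sorts the tiles into these ranges, the ratios within a range are not independent of that sorting.

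On the opposite side of the array median the ratio also came closer to 1 with distance, but replicate 2 stayed the farther one in most tiles. The 285 tiles at or above 0.5 in the mean and above 0 in both replicates, outside the 3 runs of plates with high medians (TA22 to TA28, TA35 to TA51 and TC17 to TC30), made up 1.55% of the 18445 tiles there. The median ratio of replicate 2 to replicate 1 in these high tiles was 1.79 in the 163 tiles between 0.5 and 0.6, and 1.13 in the 12 tiles at 1 or higher, of which 9 were higher in replicate 2.

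The lowest of all were TA58A10 and TA58A11, wells that follow each other in plate TA58. TA58A10 had a score of -2.43 in replicate 1 and -1.91 in replicate 2 (mean -2.17 ± 0.37, SD, n = 2), and TA58A11 had -2.32 and -2.01 (mean -2.16 ± 0.22, SD, n = 2). The drop was abrupt on both sides. The well before the pair, TA58A09, had a mean of -0.17, and the well after it, TA58A12, had a mean of 0.22. Farther before the pair the wells were low, with means of -0.26 to -0.40 in TA58A08 to TA58A06 and -0.61 in TA58A05, itself strongly low.

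TA53H07 stood alone, with -2.23 in replicate 1 and -1.69 in replicate 2 (mean -1.96 ± 0.38, SD, n = 2). The wells around it, TA53H06 and TA53H08, had means of 0.20 and 0.13, and no well within 4 on either side had a mean below 0. In the mean of the replicates, a single tile thus lay over 2 units below bordering wells that were above the array median. In replicate 1 alone TA53H06 and TA53H08 lay at -0.01 and -0.05, and in replicate 2 at 0.41 and 0.32.

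TA13B05 had -1.89 and -1.69 in replicates 1 and 2 (mean -1.79 ± 0.14, SD, n = 2). Its partner TA13B06 was also strongly low but far closer to the median, at -0.34 and -0.89, so the neighbours differed by over 1 unit. TA84F04 had -1.77 and -1.75 (mean -1.76 ± 0.01, SD, n = 2) and was followed by TA84F05 with -1.59 and -1.37, while the wells before and after this pair had means of -0.25 and -0.13. In these 5 lowest tiles replicate 1 was the lower of the replicates each time.

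The 23 lowest tiles belonged to 18 stretches, a stretch being successive strongly low wells of a plate in code order. Of the 18, 9 were single tiles, 3 were pairs and 6 had 3 or more tiles. The 36 wells that bordered them had a median of -0.11 and ranged from -0.49 to 0.22, and 13 of the 36 (36.1%) lay above 0. The step from the end of such a stretch to the next well had a median of 1.02 units, and the smallest was 0.30. Around the other 524 stretches the 1032 bordering wells had a median of -0.29, 10.7% of them lay above 0, and the median step was 0.29 units. Part of the larger step follows from the choice of the lowest tiles, and the bordering wells themselves were also closer to the array median. Neither difference was tested, as both rest on the scores that made the choice.

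**Figure D2:**
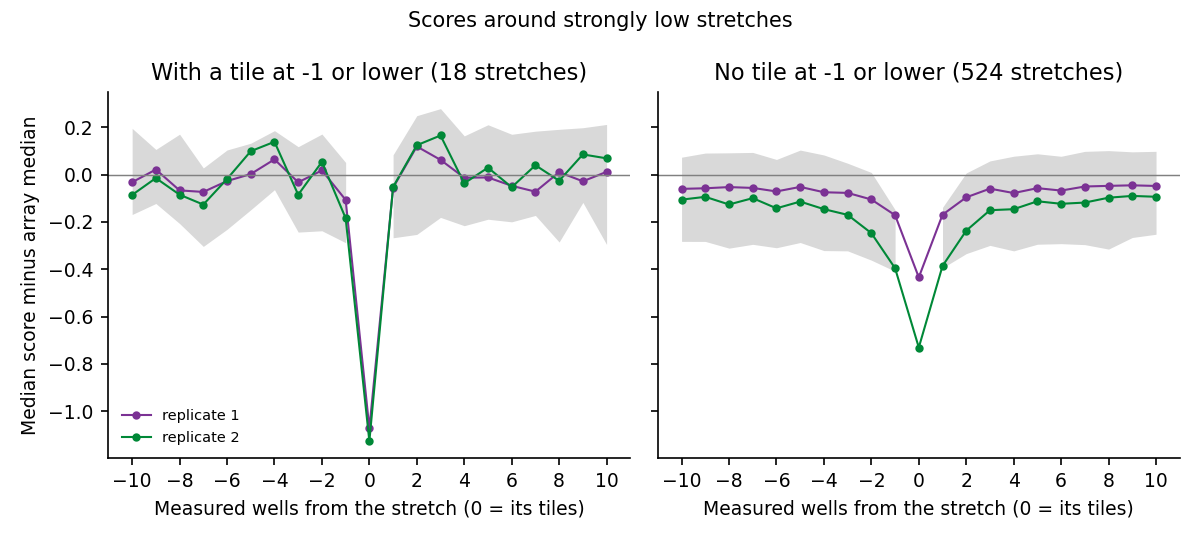
Median score minus the array median at 1 to 10 measured wells before (negative) and after a stretch, and in its own tiles (0), for replicates 1 and 2; grey is the interquartile range of the mean of the replicates. The 18 stretches that hold a tile at -1 or lower drop sharply with the replicates together, and the other 524 sit in a shallow trough in which replicate 2 is lower throughout.

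Under this rule most strongly low tiles had no strongly low neighbour. The 702 tiles formed 542 stretches, of which 429 (79.2%) were single tiles, 82 were pairs, 18 had 3 tiles, 10 had 4 and 3 had 5, the longest length seen. The mean length was 1.30 tiles. There were 201 stretches with the tiles chosen on replicate 1 alone and 1318 on replicate 2 alone. Counted by tile, 273 of 702 (38.9%) had a strongly low neighbour on at least 1 side. Of all measured tiles 3.23% were strongly low, which is not a like measure, as most tiles have 2 neighbours. The share of all tiles with a strongly low neighbour was not counted. Chosen on replicate 1 alone, 27.6% of the chosen tiles had a strongly low neighbour, and chosen on replicate 2 alone, which takes more tiles, 61.1%. Among the 702, the share with a strongly low neighbour was 32.0% for tiles between -0.5 and -0.6 and 46.7% between -0.6 and -0.75. It was 65.8% between -0.75 and -1 and 60.9% for the 23 lowest tiles. The median score was -0.56 in single tiles, -0.58 in pairs, -0.62 in stretches of 3, -0.65 in stretches of 4 and -0.61 in stretches of 5. For comparison, the 285 strongly high tiles outside the runs formed 152 stretches, of which 94 were single tiles and the longest had 19, and 67.0% of those tiles had a strongly high neighbour.

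The longest stretches were not the deepest. TA60E01 to TA60E05 had mean scores of -0.68 in replicate 1 and -0.76 in replicate 2 over its 5 tiles. Its lowest tile was the first, TA60E01, at -1.09 and -1.13, and the stretch ended in a step to TA60E06, whose mean was 0.02. TC10C04 to TC10C08 had means of -0.42 in replicate 1 and -0.84 in replicate 2, was lowest at TC10C07 (-0.60 and -1.01), and was bordered by wells at -0.31 and -0.47. TA10D10 to TA10E02 had means of -0.41 and -0.73 and was flat, with its tiles between -0.62 and -0.50 in the mean. It ran over the end of a plate row, as did 15 stretches in all. In the 31 stretches of 3 or more, the lowest tile lay inside 17 times and at an end 14 times, so no common shape was seen.

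**Figure D3:**
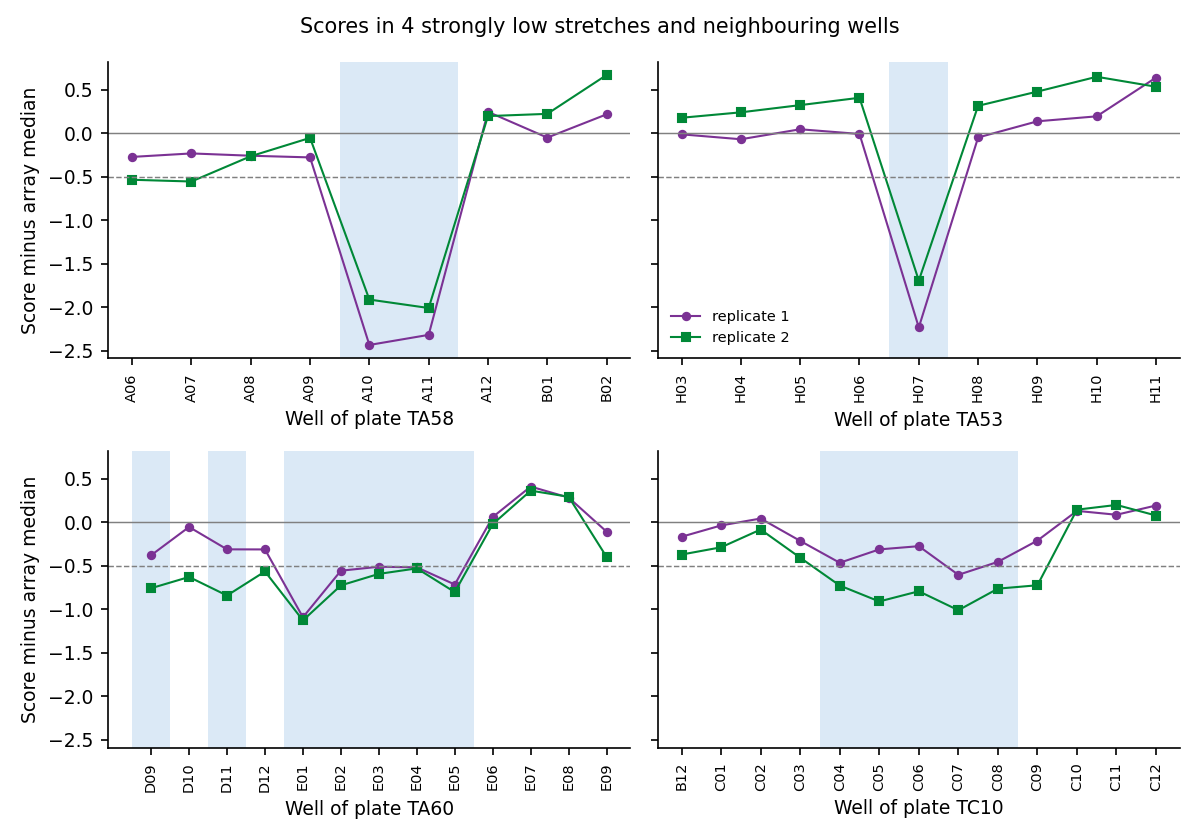
Score minus the array median by well in replicates 1 and 2, with strongly low tiles shaded and a dashed line at -0.5. TA58A10 and TA58A11 and the lone TA53H07 drop below -1.6 in both replicates, with bordering wells between -0.17 and 0.22 in the mean, whereas the stretches in plates TA60 and TC10 lie mostly between -0.3 and -1.1.

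A stretch was usually bordered by low wells in code order, though less often where it held 1 of the 23 lowest tiles. Bordering wells are not strongly low, so that they lie above the stretch follows from the rule. Over all 542 stretches, 1068 bordering wells were measured, and 88.5% of them had a mean below 0, against 47.8% of all tiles that were not strongly low. Between -0.5 and -0.25 lay 610 (57.1%) of the bordering wells, against 17.8% of all tiles that were not strongly low. Of the 526 stretches with a measured well on both sides, 416 (79.1%) had both below 0, 97 (18.4%) had 1 below 0 and 13 (2.5%) had neither. The median score rose with distance from the stretch on both sides alike. It was -0.29 in the well before and -0.28 in the well after, -0.18 and -0.16 at 2 wells, -0.10 and -0.10 at 4 wells, and -0.09 and -0.06 at 10 wells. From 4 to 10 wells away it stayed between -0.10 and -0.05, slightly below the array median. The median of all tiles outside the 3 high runs, where 97.4% of the strongly low tiles lay, was itself -0.04. The shares of all tiles that were not strongly low, given above for comparison, include the tiles of the high runs.

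How far such low wells reached in code order was measured as runs of successive wells below 0 in both replicates. There were 3055 such runs, and 461 of them held the 702 strongly low tiles. Runs with a strongly low tile had a median width of 5.0 wells (interquartile range 3.0 to 8.0), and the other 2594 had a median width of 2.0. A wider run has more tiles that could be low, so the share per tile is given as well. It was 1.87% of the 1285 tiles in runs of 1 well, 6.44% of the 3323 tiles in runs of 2 to 4, 10.6% of the 2610 tiles in runs of 5 to 9 and 11.8% of the 1589 tiles in runs of 10 or more. The widest run, TB65C04 to TB65E03, spanned 24 wells and held 1 strongly low tile. The next, TB12D03 to TB12E12, spanned 22 wells and held 7 in 3 stretches. In 67 runs there were 2 or more separate stretches, with 202 strongly low tiles between them.

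Stretches of the same plate were separated by a median of 11.0 measured wells (interquartile range 4 to 25, 359 gaps). Of these gaps, 79 (22.0%) were of 3 wells or fewer, and 39 were of 1 well. The lone well between 2 stretches had a median of -0.37 and ranged from -0.50 to -0.01, so all 39 were below 0.

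The 702 strongly low tiles were seldom close to strongly high ones, most of which lie in the high runs. Of the 702 strongly low tiles, 0 bordered on any of the 1445 tiles at or above 0.5 in the mean and above 0 in both replicates. Within 2 wells there were 4 (0.6%), within 3 wells 9 (1.3%) and within 5 wells 27 (3.8%). Of the 19585 tiles that were neither strongly low nor strongly high, 3.70% bordered on a strongly high tile and 11.98% had one within 5 wells. Outside the runs, 0 of 684 strongly low tiles and 1.57% of 17476 tiles that were neither bordered on a strongly high tile, and 2.78% and 6.43% had one within 5 wells. As neighbouring scores are alike and the scores define both kinds of tile, these shares were not tested.

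Against its own surroundings, taken as the median of the tiles within 10 measured wells on either side that were not strongly low, a strongly low tile had a median difference of -0.48 (interquartile range -0.59 to -0.38). As the surroundings leave out strongly low tiles, a difference below 0 follows from the rule. The surroundings had a median of -0.11, and they were below 0 for 549 tiles (78.2%) and above 0.1 for 49. The 23 lowest tiles had a median difference of -1.42 from surroundings whose median was 0.01.

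At least 1 strongly low tile was found in 183 of 231 plates. That number depended on the replicates used: it was 111 for the tiles chosen on replicate 1 alone and 217 for those chosen on replicate 2 alone. Of the 702 tiles, 50% were held by the 44 plates with the largest numbers. The median was 2.0 per plate, 44 plates had 1, and 57 plates with 5 or more held 416 tiles (59.3%). The fullest plates were TA10 with 16 of 96 wells (16.7%) and TA60 with 15 (15.6%), followed by TB64 and TC03 with 12 each (12.5%). In TA10 the 16 tiles formed 6 stretches that lay between wells B04 and E07. In TB64 the 12 tiles formed 9 stretches of at most 3 and were scattered from row B to row H. The medians of all tiles in these plates were -0.12 in TA10, -0.18 in TA60, -0.29 in TB64 and -0.20 in TC03.

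The share of strongly low tiles followed the median of the plate. Across the 231 plates Pearson's r was -0.56 and Spearman's rho -0.66, and outside the high runs, over 194 plates, they were -0.57 and -0.56. Both measures come from the same scores, so this is a description of the arrays. The 3 high runs held 18 strongly low tiles among 3287 (0.55%), against 684 among 18445 elsewhere (3.71%). By set, the share was 3.39% in TA plates outside the runs, 3.73% in TB plates, 5.70% in TC00 to TC13 and 2.85% in the 4 PD plates. Of the 23 lowest tiles, 17 were in TA plates outside the runs, 4 in TB, 1 in TC00 to TC13 and 1 in the run TC17 to TC30. TA plates outside the runs held 34.6% of all strongly low tiles and 32.9% of all tiles. The limit of -1 was set with the values known, and the placement of the 23 was not tested.

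**Figure D4:**
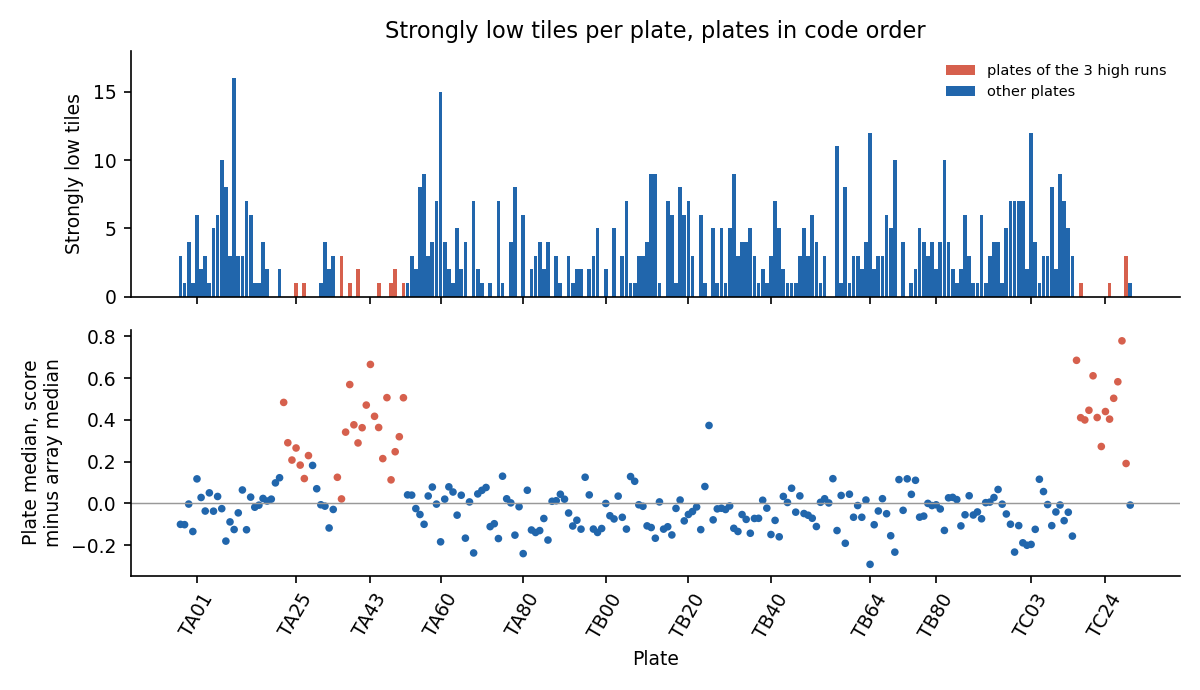
Number of strongly low tiles in each of 231 plates in code order (upper) and the median score of all tiles of the plate minus the array median (lower), with the plates of the 3 high runs in red. Plates TA10 and TA60 hold 16 and 15 strongly low tiles, and the runs hold 18 in all.

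Within the high runs, strongly low tiles were few and stood farther below their surroundings. The 18 tiles there lay in 12 of 37 plates, had a median of -0.54, and had a median difference of -0.69 from surroundings at 0.14. The 684 tiles elsewhere had a median of -0.57 and a median difference of -0.47 from surroundings at -0.12. The surroundings of a tile in the runs are high by the choice of the runs, so this difference was not tested. The lowest was TC25B03, with -1.44 in replicate 1 and -1.42 in replicate 2 (mean -1.43 ± 0.01, SD, n = 2), in surroundings of 0.19. TC18H10 had -0.51 and -0.80 in surroundings of 0.51. TC30E06 had -0.35 and -0.76, and TC30E08 had -0.49 and -0.61, in surroundings of 0.49 and 0.53. TA40B05 and TA40B06 followed each other, with -0.41 and -0.98 in the first and -0.32 and -0.70 in the second. These were chosen after their values were seen. Of the 18 tiles, 12 had surroundings above 0 and 6 had surroundings below 0.

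The rule did not use the position on the plate, and strongly low tiles were found in every row and column. The share ran from 2.93% in row F to 3.5% in row A, and the numbers per row from 79 to 96. By column it ran from 2.70% in column 10 to 4.20% in column 11, with 3.97% in column 5 and 3.92% in column 9 as the next highest. The median of all tiles lay between -0.01 and 0.01 in every column. No position was tested against another. At the plate edge, 5 strongly low tiles were the last well of a plate with a successor, and the first well of the next plate was below 0 in all 5, with a median of -0.39. The first well of a plate was strongly low 11 times, and the last well of the plate before was below 0 in all 11, with a median of -0.35. In 1 of the 5 the next plate began with a strongly low tile, so that pair of plates is in both counts. The wells across the plate end were thus below 0 in each of these few cases, against 49.5% of all tiles, those of the high runs included. Beside a well without a value lay 2 strongly low tiles (0.28%), compared with 184 of all tiles (0.85%). These shares were not tested. Plates with missing wells included some of the high runs, such as TA22 with 60 and TA39 with 42 measured wells, where strongly low tiles were few.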

How the data were processed

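The deposited values are 1 ratio score per tile and array in a single table. Amplified DNA was labelled without an intermediate step in Cy3 or Cy5, per the labels' protocols. No source used here gives the normalization, log base, centring, array design or genome build, and scanner intensities did not enter. Of 21800 listed features, 68 had no value. The deposited medians were 0.23 (replicate 1) and 0.13 (replicate 2); dye-swap arrays were identical at all 21732 tiles, so they counted once. Nothing says that the replicates came from separate cultures. The array number limits the precision.

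After the median of each replicate was subtracted, the tiles, stretches, gaps and surroundings were counted with pandas 2.3.3 and numpy 2.4.6 under Python 3.11.15 (plots: matplotlib 3.10.9; intervals and modes: scipy 1.17.1). The counting was checked on simulated plates. Members and rules were chosen with earlier results of these data known, and no test was run, since the score chose the tiles. Tiles named by rule were the 5 lowest, the 3 nearest the threshold on each side, the 3 longest stretches and the 3 fullest plates by number and by share (4 with a tie); the others were chosen after their values were seen. Alternatives covered centring, scale, threshold, sign rule, neighbour rule and each replicate left out.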

Additional observations from a re-analysis of the deposited data

How the results depend on the processing

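The number of strongly low tiles (702) depended on the centre, the threshold and the replicate. It was 1293 with each replicate centred on its mode, 105 without centring, 1815 at -0.4, 258 at -0.6 and 199 with both replicates at or below -0.5, and 239 to 2191 with 1 replicate left out. It was 686 with each plate centred on its own median, but only 376 of those tiles were among the 702. It was 737 after scaling to equal median absolute deviation (630 shared) and 695 after quantile normalization (657 shared). The share with a strongly low neighbour (38.9%) was 48.8% on the mode, 32.4% without centring, 46.6% by plate, 55.7% at -0.4 and 33.7% at -0.6. It was 28.1% with both replicates at or below -0.5, and 27.6% to 61.1% with 1 replicate left out. The share did not always rise with the number of tiles chosen, as the 686 tiles by plate had a higher share than the 702. The stretches (542) numbered 914 on the mode, 87 without centring, 1186 at -0.4, 209 at -0.6, 166 with both replicates at or below -0.5, and 201 to 1318 with 1 replicate left out. The plates with a strongly low tile (183) numbered 67 without centring, 118 at -0.6, 102 with both replicates at or below -0.5, and 111 to 217 with 1 replicate left out. Breaking stretches at row ends (35.6%), joining plates (39.0%) or breaking at missing wells (38.9%) moved the share with a strongly low neighbour little. The median of the bordering wells stayed below 0 under all alternatives run. So did the median difference from the surroundings, but largely by construction, as the surroundings leave out strongly low tiles. The cause of the changes between alternatives was not tested.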
